A study of Mus musculus with 8 samples.

Results

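The genes of cholesterol and fatty acid synthesis were examined in the dorsal lateral geniculate nucleus (dLGN), where retinal axons meet thalamic relay neurons, of mice labelled P27 (postnatal day 27). The set held 31 genes chosen by symbol for their role in these pathways, of which 30 had a row among 23116 genes, and Elovl7 was not analysed here. Of the animals, 4 are labelled Fn14 KO, knockouts of the TWEAK receptor gene Tnfrsf12a, and 4 are labelled Fn14 WT, their wild-type littermates. All carry the source name C57BL/6J, were kept under standard housing and included both sexes, and each was processed as an independent replicate. The nucleus was microdissected and total RNA was depleted of ribosomal RNA before sequencing. Libraries are named KO 1 to KO 4 and WT 1 to WT 4, and each name is a label only. Values are TPM, a transcript level per gene length scaled to a common sum per library, so levels can be set against each other between genes. The sources used here do not say which part of Tnfrsf12a the KO allele lacks or which mice were female.

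Cholesterol does not cross into the brain from blood in meaningful amounts, so neural cells build it from acetyl-CoA through mevalonate, farnesyl diphosphate, squalene and lanosterol. Fatty acids are built from the same acetyl-CoA by carboxylation and chain synthesis, and are then elongated and desaturated. The transcription factors SREBP1 and SREBP2 drive both routes. They are held in the endoplasmic reticulum by Insig proteins when sterol is plentiful and are escorted to the Golgi by Scap when it is scarce. Myelin is rich in cholesterol and long-chain lipids, and oligodendrocytes are heavy users of both pathways.

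The libraries differed in ways that bear on every value. Tnfrsf12a stood at 2.95, 1.12, 1.32 and 1.86 TPM in KO 1 to KO 4, against 4.78, 5.48, 3.67 and 0.82 TPM in WT 1 to WT 4, so the library labelled WT 4 lay below every KO library. Only WT 1 and WT 2 were above 1000 TPM for Mbp, the gene of a main myelin protein, with 11153 and 13566 TPM, and the other 6 libraries held 34.4 to 51.3 TPM. Of 10 markers of myelinating oligodendrocytes, 8 had a row. Their summed level was 68.2 to 85.1 TPM in KO, 27591 to 34718 TPM in WT 1 and WT 2, and 61.9 to 94.9 TPM in WT 3 and the library labelled WT 4, and Opalin was listed at 0 in all 6 libraries of low Mbp. All 6 young-neuron markers had a row and summed to 6657 to 8320 TPM in KO, 564 to 681 TPM in WT 1 and WT 2, and 5752 to 7826 TPM in WT 3 and the library labelled WT 4. Astrocyte markers (5 of 7 with a row) summed to 327 to 526 TPM in KO, 1702 to 1744 TPM in WT 1 and WT 2, and 339 to 642 TPM in the other WT libraries. Slc1a2, Gja1 and Agt were above the other 6 in WT 1 and WT 2, at 8.12, 4.01 and 8.43 times their mean. Aldh1l1 and Slc1a3 did not separate, at 0.891 and 1.38 times. Microglia markers (6 of 6) summed to 52.2 to 63.4 TPM in KO, 148.6 to 161.8 TPM in WT 1 and WT 2, and 53.6 to 65.4 TPM in the other WT libraries. Neuron markers (7 of 7) summed to 1180 to 1953 TPM in KO, 3614 to 3935 TPM in WT 1 and WT 2, and 1650 to 1667 TPM in the other WT libraries. That sum was carried by Snap25 and Syt1, at 8.42 and 3.53 times the mean of the other 6 in WT 1 and WT 2, and Slc17a6 was also above, while Map2 was below at 0.392 times and Rbfox3, Gad1 and Gad2 did not separate. Oligodendrocyte precursor markers (6 of 6) summed to 207 to 339 TPM in KO, 756 to 915 TPM in WT 1 and WT 2, and 240 to 277 TPM in the other WT libraries. Olig1, Olig2, Sox10 and Gpr17 were above the other 6 in both WT 1 and WT 2. Pdgfra and Cspg4 did not separate on the deposited scale, at 0.856 and 1.25 times the mean of the other 6. Endothelial markers (3 of 4) summed to 110 to 125 TPM in KO, 71.0 to 95.3 TPM in WT 1 and WT 2, and 103 to 125 TPM in the other WT libraries. Cldn5 was below the other 6 in WT 1 and WT 2, at 0.563 times their mean. Flt1 was above the other 6 at 1.71 times, and Pecam1 did not separate. Choroid plexus markers (4 of 4) summed to 24.7 to 428 TPM in KO, 2.6 to 5.46 TPM in WT 1 and WT 2, and 9.39 to 109.5 TPM in the other WT libraries. Thalamic relay neuron markers (4 of 5) summed to 793 to 1492 TPM in KO, 713 to 777 TPM in WT 1 and WT 2, and 230 to 1422 TPM in the other WT libraries. Tcf7l2, a transcription factor of thalamic neurons, was present in all 8 libraries but its level in WT 3, 43.4 TPM, was far below the 250 to 1074 TPM of the other 7. Gbx2 was also lowest in WT 3, but Lef1 was lowest in KO 3 and Slc17a6 in KO 1. Relative to the mean of the other 6, WT 1 and WT 2 had Tcf7l2 at 0.361 and Gbx2 at 0.312 times. Lef1 stood at 1.97 and Slc17a6 at 1.70 times. The part of these markers in the values below was not tested. The labels give all 8 mice the same age, and whether WT 1 and WT 2 were of one age with the other 6 was not tested, which bears on every KO minus WT value. In bulk tissue, fewer cells of a type and less RNA per cell cannot be told apart.

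Promoter sequences of 6 members are shown because these genes took different paths in the libraries of high Mbp. Mvk and Fasn lay below the other 6 libraries, Ebp, Elovl1 and Elovl5 lay above them, and Hmgcs1 lay among them in WT 1 and just above them in WT 2. RefSeq's promoter table for GRCm38.p6 held 33 windows for 24 of the 30 measured members, with none for Fdps, Fdft1, Sqle, Scd1, Scd2 and Stard4. Each sequence is the 250 bases before an annotated start, read on the gene's strand. Capitals mark CCAAT, the box bound by NF-Y, a factor known to act beside SREBP, in either orientation (ATTGG on the other strand), CACGTG, an E-box, and TCACNCCAC, a spelling of the sterol regulatory element.
Hmgcs1: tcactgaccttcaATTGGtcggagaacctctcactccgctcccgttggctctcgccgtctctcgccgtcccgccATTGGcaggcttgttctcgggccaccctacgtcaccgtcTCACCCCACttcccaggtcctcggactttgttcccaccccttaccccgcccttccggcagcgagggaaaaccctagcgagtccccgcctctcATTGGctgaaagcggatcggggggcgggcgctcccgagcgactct
Mvk: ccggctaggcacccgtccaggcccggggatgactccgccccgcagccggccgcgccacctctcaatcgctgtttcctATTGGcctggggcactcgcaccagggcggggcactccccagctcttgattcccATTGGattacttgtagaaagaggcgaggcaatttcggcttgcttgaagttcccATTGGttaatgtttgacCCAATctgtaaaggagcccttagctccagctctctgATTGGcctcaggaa
Fasn: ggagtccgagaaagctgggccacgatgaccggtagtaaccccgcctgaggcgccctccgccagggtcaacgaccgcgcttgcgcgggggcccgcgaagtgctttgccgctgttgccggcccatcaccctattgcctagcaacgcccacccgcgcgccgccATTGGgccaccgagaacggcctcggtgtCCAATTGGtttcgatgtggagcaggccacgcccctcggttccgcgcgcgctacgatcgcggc
Ebp: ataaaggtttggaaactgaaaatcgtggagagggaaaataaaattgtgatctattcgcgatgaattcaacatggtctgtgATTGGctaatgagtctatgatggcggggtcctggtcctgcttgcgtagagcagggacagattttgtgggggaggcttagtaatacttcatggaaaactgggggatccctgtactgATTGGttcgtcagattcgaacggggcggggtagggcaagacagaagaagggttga
Elovl1: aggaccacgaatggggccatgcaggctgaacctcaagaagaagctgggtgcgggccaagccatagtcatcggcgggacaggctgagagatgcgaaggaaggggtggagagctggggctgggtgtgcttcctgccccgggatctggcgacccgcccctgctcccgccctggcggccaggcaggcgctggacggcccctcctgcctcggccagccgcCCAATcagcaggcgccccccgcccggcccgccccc
Elovl5: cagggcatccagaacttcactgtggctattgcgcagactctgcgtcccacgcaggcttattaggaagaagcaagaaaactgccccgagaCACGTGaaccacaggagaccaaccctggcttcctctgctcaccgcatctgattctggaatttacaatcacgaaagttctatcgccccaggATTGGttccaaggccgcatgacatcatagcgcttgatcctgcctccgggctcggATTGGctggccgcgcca
The windows lie at chr13:119690101-119690350 on the plus strand for Hmgcs1, chr5:114444019-114444268 on the plus strand for Mvk, chr11:120824548-120824797 on the minus strand for Fasn, and chrX:8193513-8193762 on the minus strand for Ebp. Those of Elovl1 and Elovl5 lie at chr4:118427843-118428092 and chr9:77917115-77917364, both on the plus strand. CCAAT was found on either strand in 20 of the 33 member windows (60.6%), against 33.8% of all 32851 windows of the table. The Mvk window held 5 matches, and the Fasn window held 3, of which 1 pair overlapped as CCAATTGG. TCACNCCAC was found in 1 member window, that of Hmgcs1, against 1.05% of all windows. CACGTG was found in 5 member windows, 15.2%, against 6.02% of all windows, and among the sequences shown only Elovl5 held it. Genes on both sides of the split carried CCAAT, and on both sides a member's window held none, that of Acat2 below and Elovl6 above. The window of Acaca, which also lay below, held none either, but it is at chr11:84195188-84195437 on the plus strand. That is inside the gene, which starts at 84129672, so it does not show the sequence before the gene's first start. A further window of Elovl1 also held none. These matches are letters in a window, not measured sites.

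The pathway was strongly expressed in every library. Hmgcs1, which makes HMG-CoA, had 609, 631, 572 and 734 TPM in KO 1 to KO 4, against 591, 741, 517 and 624 TPM in WT 1 to WT 4, and was the highest of the cholesterol genes. Its groups overlapped, and the highest library was WT 2. Scd2, the brain form of the desaturase that makes oleate, was the member of highest mean, with 532, 601, 795 and 682 TPM in KO 1 to KO 4, against 1638, 1820, 711 and 585 TPM in WT 1 to WT 4. Both WT 1 and WT 2 stood above all 6 other libraries, and those 6 overlapped. Ebp and Elovl1 were the members of lowest mean. Ebp averaged 11.9 ± 1.79 TPM in KO, against 21.4 ± 12.01 TPM in WT, and Elovl1 9.46 ± 1.47 TPM in KO, against 35.5 ± 29.4 TPM in WT (SD, n = 4 each, as for each mean below). The map of values by gene and library sets WT 1 and WT 2 apart from the other WT columns.

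**Figure D1:**
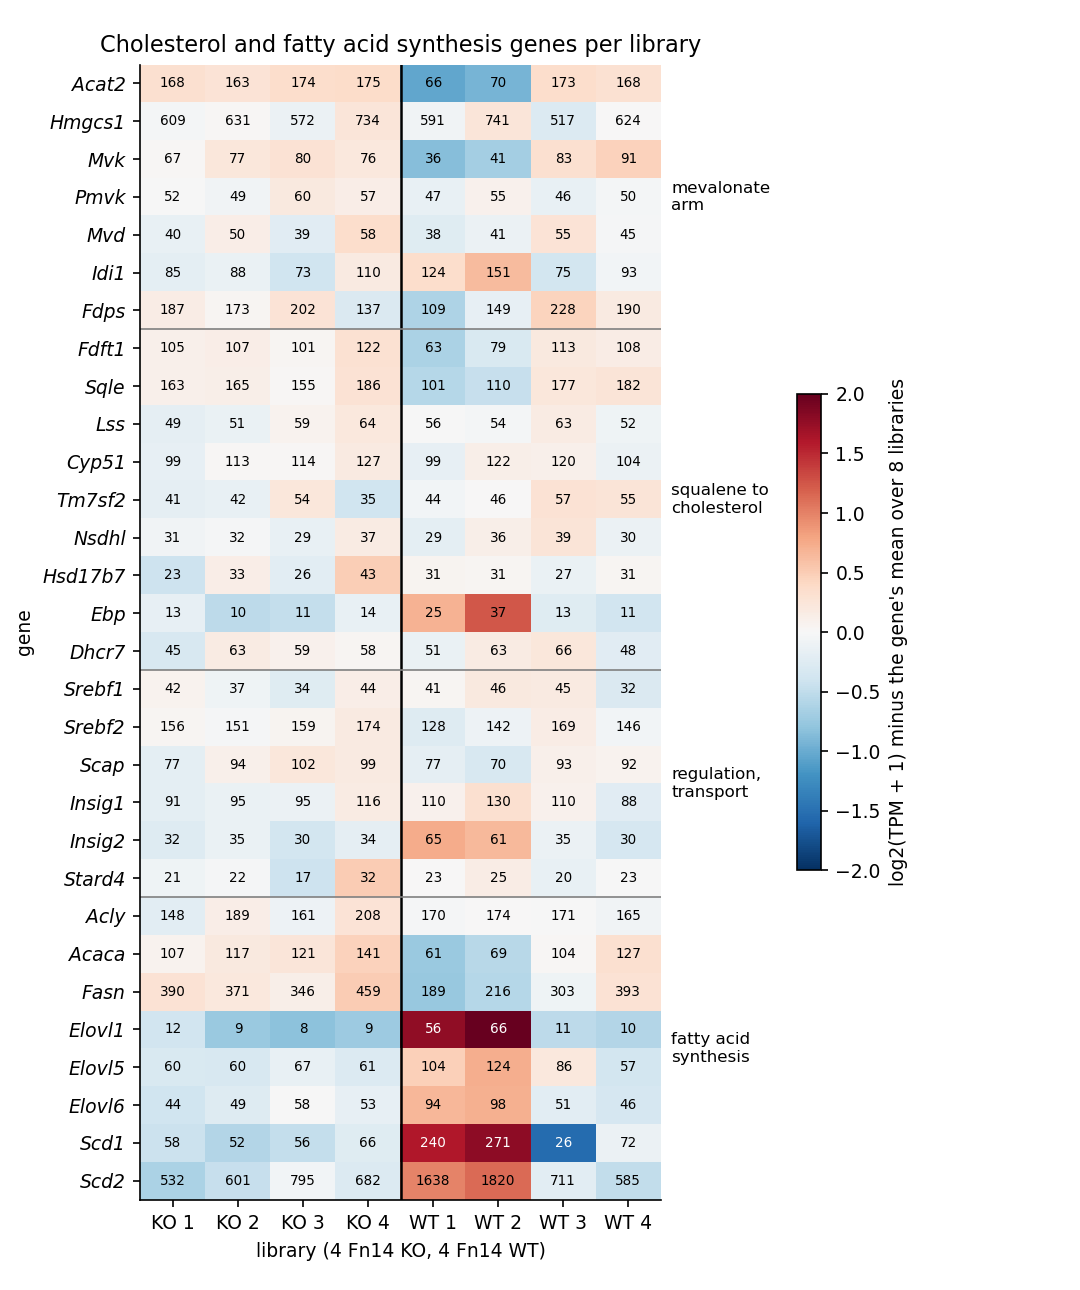
TPM of the 30 measured genes (rows, by role) in the 4 Fn14 KO and 4 Fn14 WT libraries (columns). Numbers are TPM, rounded, and colour is log2(TPM + 1) minus the gene's mean over the 8 libraries, with colours ending at 2 on either side. WT 1 and WT 2 are red for Elovl1, Scd1, Scd2 and Ebp and blue for Acat2, Mvk, Fasn and Acaca, while the libraries labelled WT 3 and WT 4 resemble the KO columns for most genes.

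To ask which transcripts differ where Fn14 is lacking, KO was compared with WT over the 15967 genes whose mean reached 1 TPM, on log2(TPM + 1). The test was limma, which fits each gene linearly and shares variance between genes, with Benjamini-Hochberg adjustment, and every p below is from it. All 30 members passed the filter on low values. None passed the threshold of 0.05 (adjusted p from 0.429 to 0.987), and neither did any gene, 0.0% of those tested. At an unadjusted p under 0.05 there were 2 of 30 members, against 7.66% of all genes: Fasn was higher in KO, as were 5.33% of all genes, and Elovl5 lower, as were 2.33%. No member separated the KO from the WT libraries without overlap, against 3.34% of all genes. Of the members, 15 lay above and 15 below 0 in KO, with a median difference of −0.00025, while 60.1% of all genes lay above 0, with a median of 0.10. With factors from the trimmed mean of M-values (TMM), 9 members lay above and 21 below 0 with a median of −0.12, beside −0.01 over all genes, and after quantile normalization 13 lay above and 17 below with a median of −0.06, beside 0.0021. Weighting libraries by their fit (array weights, lowest for the libraries labelled WT 3 and WT 4) called 16 of 30 members, 7 higher and 9 lower in KO, against 65.0% of all genes.

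Among the enzymes from acetyl-CoA to farnesyl diphosphate, 6 of 7 lay above 0 in KO, with a median log2 difference of 0.09, but 3 of 7 with TMM factors (median −0.04), and none passed. Acat2, the cytosolic thiolase that opens the pathway, had 168, 163, 174 and 175 TPM in KO 1 to KO 4, against 65.6, 70.4, 173 and 168 TPM in WT 1 to WT 4. In WT 1 and WT 2 it was low, and the other 6 libraries lay within 1.07-fold of each other. The KO minus WT difference of 0.65 (SE 0.34) did not pass (adjusted p = 0.429), and without WT 1 and WT 2 it was −0.0031. Mvk, mevalonate kinase, had 66.9, 76.8, 80.4 and 75.8 TPM in KO 1 to KO 4, against 36.1, 40.6, 82.6 and 90.8 TPM in WT 1 to WT 4. Here too WT 1 and WT 2 were the lowest, while the libraries labelled WT 3 and WT 4 were the highest. The difference of 0.37 (SE 0.30) became −0.21 without WT 1 and WT 2. Idi1, the isomerase that interconverts the isoprenoid building blocks, went the other way, with 85.2, 88.2, 73.1 and 110 TPM in KO 1 to KO 4, against 124, 151, 75.0 and 93.2 TPM in WT 1 to WT 4. Its highest libraries were WT 1 and WT 2, and the difference of −0.27 (SE 0.23) became 0.08 without them. Fdps, farnesyl diphosphate synthase, averaged 175 ± 27.8 TPM in KO, against 169 ± 51.6 TPM in WT, with WT 1 lowest at 109 TPM and WT 3 highest at 228 TPM. Pmvk and Mvd, the enzymes between Mvk and Idi1, showed no split, with 46.4 to 59.7 TPM for Pmvk over the 8 libraries and 37.8 to 57.9 TPM for Mvd.

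From squalene to cholesterol, 4 of 9 members were positive in KO minus WT (median −0.01), and 2 of 9 with TMM factors (median −0.14). Sqle, squalene epoxidase and a rate-limiting enzyme, had 163, 165, 155 and 186 TPM in KO 1 to KO 4, against 101, 110, 177 and 182 TPM in WT 1 to WT 4. Fdft1, squalene synthase, had 105, 107, 101 and 122 TPM in KO 1 to KO 4, against 63.0, 79.4, 113 and 108 TPM in WT 1 to WT 4. Both genes were lowest in WT 1 and WT 2, and the other 6 libraries overlapped. Ebp, the sterol isomerase, had 13.4, 10.2, 10.6 and 13.5 TPM in KO 1 to KO 4, against 24.9, 36.9, 12.6 and 11.2 TPM in WT 1 to WT 4. On the deposited and quantile scales it was the sole member of this stretch above the other 6 libraries in both WT 1 and WT 2. With TMM factors Lss was above them as well. The Ebp difference of −0.65 (SE 0.36, adjusted p = 0.429) was −0.0100 without WT 1 and WT 2. The remaining enzymes, Lss, Cyp51, Tm7sf2, Nsdhl, Hsd17b7 and Dhcr7, which close the sterol rings and trim and reduce the sterol, differed by −0.05 to 0.06 between WT 1 and WT 2 and the other 6, and by 0.20 to 0.30 with TMM factors. Of these, Tm7sf2, a sterol reductase, had the widest difference between genotypes, with 43.0 ± 8.05 TPM in KO, against 50.8 ± 6.30 TPM in WT (difference −0.24, SE 0.16, adjusted p = 0.444).

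Of the regulators and the sterol carrier, 2 of 6 were positive in KO minus WT (median −0.04, and −0.16 with TMM factors). Srebf2, the gene of the cholesterol-directed factor, had 156, 151, 159 and 174 TPM in KO 1 to KO 4, against 128, 142, 169 and 146 TPM in WT 1 to WT 4. On the deposited and quantile scales WT 1 and WT 2 were lowest, but with TMM factors they lay among the others. Insig2, the retention factor that is not itself a strong SREBP target, had 32.2, 35.2, 29.6 and 34.1 TPM in KO 1 to KO 4, against 65.2, 60.9, 35.3 and 30.3 TPM in WT 1 to WT 4. The highest libraries were WT 1 and WT 2, with a mean 1.92 times that of the other 6, and the KO minus WT difference of −0.46 (SE 0.25, adjusted p = 0.429) was −0.0015 without them. Its paralogue Insig1, a sensitive SREBP target, averaged 99.1 ± 11.2 TPM in KO, against 110 ± 17.2 TPM in WT, with WT 2 highest at 130 TPM. Srebf1, the gene of the fatty acid-directed factor, averaged 39.1 ± 4.48 TPM in KO, against 41.1 ± 6.22 TPM in WT. Scap averaged 92.9 ± 11.5 TPM in KO, against 83.0 ± 11.3 TPM in WT. Stard4, a cytosolic sterol carrier, averaged 23.2 ± 6.63 TPM in KO, against 22.7 ± 1.99 TPM in WT.

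Fatty acid genes held the widest differences, with 3 of 8 positive in KO minus WT (median −0.47) and 2 of 8 with TMM factors (median −0.59), and none passed. Fasn, fatty acid synthase, had 390, 371, 346 and 459 TPM in KO 1 to KO 4, against 189, 216, 303 and 393 TPM in WT 1 to WT 4. The lowest were WT 1 and WT 2, WT 3 was next, and the library labelled WT 4 lay among the KO libraries. The difference was 0.56 (SE 0.24, unadjusted p = 0.0476, adjusted p = 0.429), and 0.17 without WT 1 and WT 2. Acaca, the acetyl-CoA carboxylase that commits carbon to fatty acids, had 107, 117, 121 and 141 TPM in KO 1 to KO 4, against 60.8, 69.0, 104 and 127 TPM in WT 1 to WT 4. Its difference of 0.48 (SE 0.24, adjusted p = 0.429) was 0.07 without WT 1 and WT 2, which were again lowest. Acly, which supplies cytosolic acetyl-CoA to both pathways, averaged 176 ± 27.2 TPM in KO, against 170 ± 3.83 TPM in WT. It showed no split on the deposited and quantile scales, but with TMM factors WT 1 and WT 2 lay above the other 6.

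The elongases and desaturases among the members stood on the opposite side. Elovl1, which extends very long saturated chains, had 11.6, 8.91, 8.32 and 9.0 TPM in KO 1 to KO 4, against 55.7, 65.6, 10.5 and 9.96 TPM in WT 1 to WT 4. Its mean in WT 1 and WT 2 was 6.24 times that of the other 6, which overlapped across genotypes. Scd1, a desaturase of the same activity as Scd2, had 57.7, 51.7, 55.8 and 65.7 TPM in KO 1 to KO 4, against 240, 271, 26.1 and 72.3 TPM in WT 1 to WT 4. WT 1 and WT 2 were highest, WT 3 was lowest of all 8, and the KO minus WT difference of −0.87 (SE 0.68) turned to 0.39 without WT 1 and WT 2. Elovl5, which extends polyunsaturated chains, had 59.7, 59.6, 66.9 and 61.3 TPM in KO 1 to KO 4, against 104, 124, 86.3 and 57.2 TPM in WT 1 to WT 4. WT 3 lay between WT 1 and WT 2 and the KO libraries, and the library labelled WT 4 lay below all of them. Its difference of −0.52 (SE 0.22) had the smallest unadjusted p of the set, 0.0460 (adjusted p = 0.429), and was −0.18 without WT 1 and WT 2. Elovl6, which extends palmitate to stearate, averaged 51.2 ± 5.96 TPM in KO, against 72.1 ± 27.2 TPM in WT. Scd2 had a difference of −0.71 (SE 0.39, adjusted p = 0.429) that was 0.00067 without WT 1 and WT 2.

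**Figure D2:**
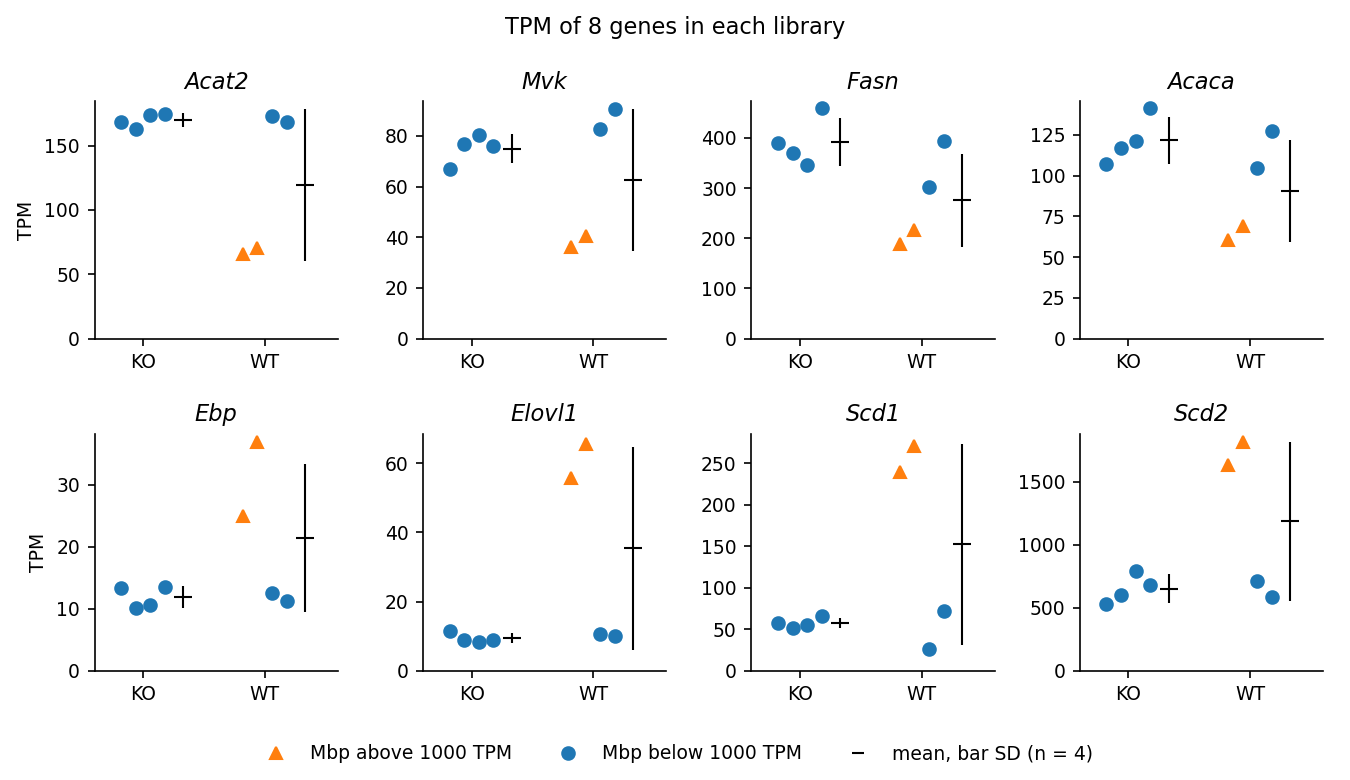
TPM (vertical axis, from 0) of 8 genes in each library, KO on the left and WT on the right, with the mean and SD of each group (n = 4) as a dash and bar. Triangles are the libraries with Mbp above 1000 TPM (WT 1 and WT 2), and circles the other 6. For Acat2, Mvk, Fasn and Acaca the triangles lie below every circle, and for Ebp, Elovl1, Scd1 and Scd2 above every circle.

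**Figure D3:**
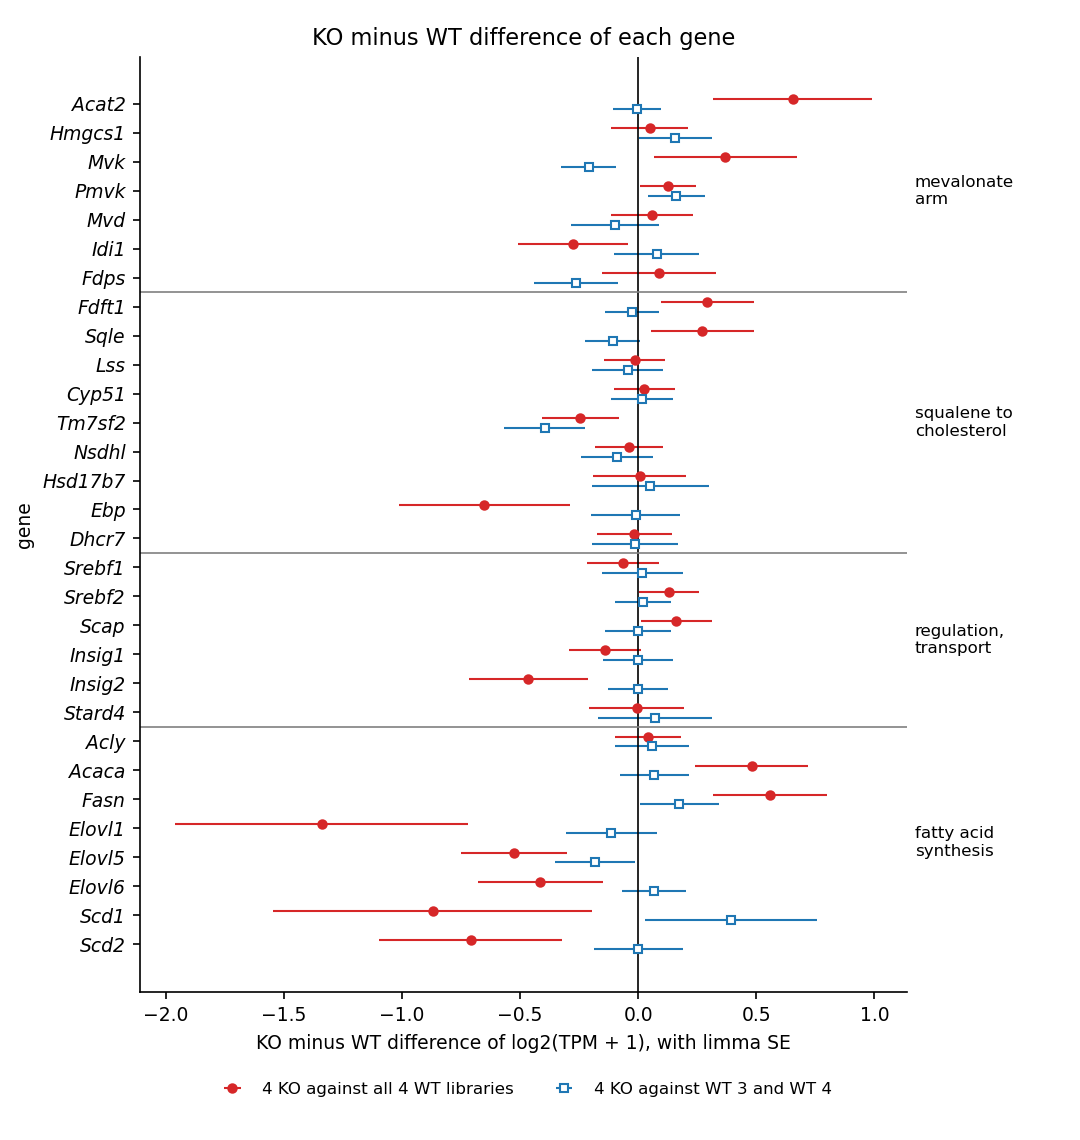
KO minus WT difference of log2(TPM + 1) (horizontal axis) for the 30 genes, with the limma standard error as a bar. Filled circles set the 4 KO libraries against all 4 WT libraries and open squares set them against the libraries labelled WT 3 and WT 4 alone. The squares lie between −0.40 and 0.39, and the circles between −1.34 and 0.65.

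The libraries of high Mbp were set against the other 6 as a description without a test, since this split was made from a measured gene. It divides the Fn14 WT libraries, and the other 6 hold both genotypes. The same libraries enter the WT mean, so these values are not independent of the KO minus WT differences above. Both libraries lay above all 6 others for 8 of 30 members and below all 6 for 7, against 22.5% and 40.5% of all genes on the deposited scale. With TMM factors the counts were 12 and 6, against 31.2% and 29.3% of all genes, and after quantile normalization 9 and 8, against 29.3% and 29.4%. On the deposited scale the share of members outside the range of the other 6 libraries, 15 of 30, was below that of all genes, 63.0%. With TMM factors and after quantile normalization, the counts just given put the members close to the share of all genes. Under all 3 scalings the same 8 were above (Idi1, Ebp, Insig2, Elovl1, Elovl5, Elovl6, Scd1 and Scd2) and the same 6 below (Acat2, Mvk, Fdft1, Sqle, Acaca and Fasn). Members of this set were therefore found at both ends, with log2 differences from −1.31 for Acat2 to 2.53 for Elovl1 around a median of −0.02, where all genes had a median of −0.26. With TMM factors these medians were 0.23 for the members and −0.04 for all genes. In the steps up to squalene epoxidase, Acat2, Mvk, Fdft1 and Sqle were lower in WT 1 and WT 2 and Idi1 was higher. Hmgcs1, Pmvk, Mvd and Fdps were not outside the range in both. In the fatty acid group, 5 of 8 were above and 2 below, with Acly on neither side on the deposited scale. Of these 8 members, those below, Acaca and Fasn, build the chain, and those above lengthen or desaturate it. Over all genes these shares were the 22.5% above and 40.5% below given above.

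**Figure D4:**
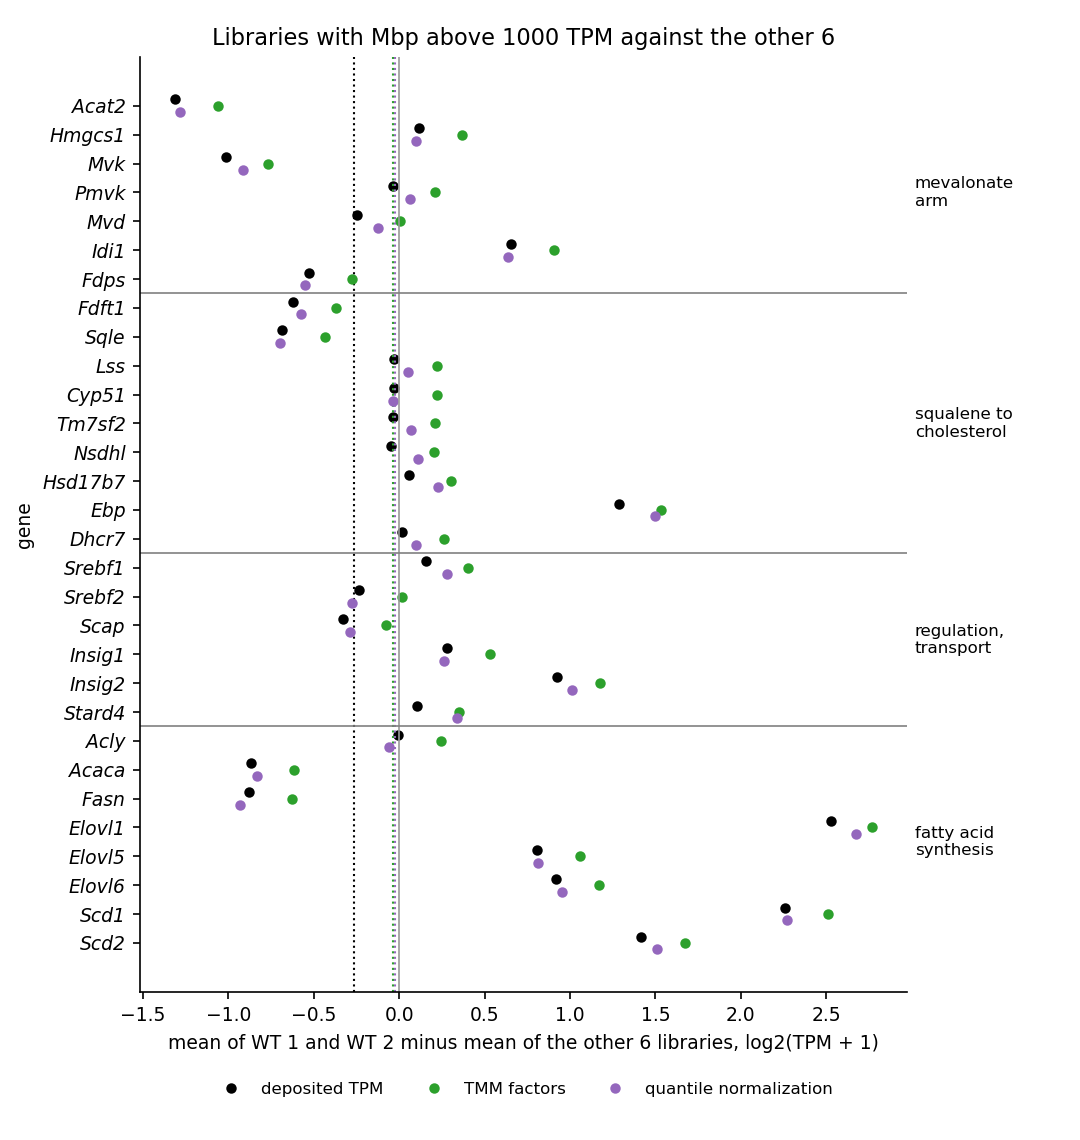
Mean log2(TPM + 1) of WT 1 and WT 2 minus that of the other 6 libraries (horizontal axis) for each gene, on the deposited scale (black), with TMM factors (green) and after quantile normalization (purple). Dotted lines are the medians of all 15967 genes on each scale, −0.26, −0.04 and −0.03. Elovl1, Scd1, Scd2 and Ebp lie farthest right and Acat2 farthest left on every scale, and 14 genes lie outside the other 6 libraries on the same side under all 3.

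Other genes of the pathway, taken from lists by role and not by how they moved, gave no call. Beside the counts of positive genes in these lists, 60.1% of all genes were positive as deposited, 48.9% with TMM factors and 50.2% after quantile normalization. Of the other cholesterol synthesis genes, 3 of 8 tested were positive in KO minus WT on the deposited, TMM and quantile scales, with medians of −0.16, −0.29 and −0.19. The late enzymes Msmo1 (listed under its older symbol Sc4mol) and Sc5d were highest in WT 1 and WT 2, with means 2.14 and 1.59 times those of the other 6, as was the case for Ebp among the members. Their KO minus WT differences were −0.65 (SE 0.28) and −0.42 (SE 0.19), with unadjusted p of 0.0507 and 0.0522. Of 10 genes of SREBP processing and sterol-regulated protein turnover, 6 were positive on each of these scales, and the median was 0.16 as deposited, 0.04 under TMM and 0.08 under quantile normalization. Mbtps2, the protease that releases SREBP from the membrane, had 46.1, 41.3, 35.9 and 46.7 TPM in KO 1 to KO 4, against 19.4, 20.1, 28.7 and 36.9 TPM in WT 1 to WT 4. The lowest were WT 1 and WT 2, and of the KO libraries only KO 3 lay below the highest WT library. The difference of 0.71 (SE 0.22) had an unadjusted p of 0.0105 but an adjusted p of 0.429.

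Genes that move, store and break down sterol had 5 of 20 tested positive in KO minus WT (median −0.36), and 4 with TMM factors. Apoe, the main lipoprotein of the brain, had 223, 303, 440 and 269 TPM in KO 1 to KO 4, against 1084, 1175, 609 and 321 TPM in WT 1 to WT 4. Its difference of −1.24 (SE 0.42) had an unadjusted p of 0.0185 (adjusted p = 0.429). Cyp46a1, the neuronal hydroxylase through which the brain disposes of cholesterol, had 34.7, 50.2, 50.7 and 60.9 TPM in KO 1 to KO 4, against 369, 326, 31.5 and 53.0 TPM in WT 1 to WT 4. Cyp27a1, another sterol hydroxylase, was at 0.58 to 1.95 TPM in the KO libraries, 13.1 and 17.5 TPM in WT 1 and WT 2, and 0.34 and 0.41 TPM in the libraries labelled WT 3 and WT 4. The lipoprotein receptors split, with Lrp8 and Scarb1 at 0.215 and 0.205 times the mean of the other 6 in WT 1 and WT 2, and Vldlr at 1.73 times. Of the other fatty acid synthesis, elongation and desaturation genes, 10 of 21 tested were positive (median −0.05), 5 with TMM factors and 7 after quantile normalization. Elovl2, an elongase of polyunsaturated chains, averaged 44.8 ± 4.77 TPM in KO, against 27.4 ± 14.7 TPM in WT, with a difference of 0.84 (SE 0.36, unadjusted p = 0.0456). Its 15.1 and 14.4 TPM in WT 1 and WT 2 lay below the other 6 libraries, unlike Elovl1, Elovl5 and Elovl6. The other elongases and desaturases tested in this list also split on the deposited scale. Fads3 (0.293 times the mean of the other 6), Scd3 and Scd4 lay below, Fads1 and Fads6 above, and Elovl4 and Fads2 on neither side. Acss2, which makes acetyl-CoA from acetate, averaged 26.1 ± 9.29 TPM in KO, against 70.7 ± 48.5 TPM in WT, and its mean in WT 1 and WT 2 was 4.17 times that of the other 6.

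Genes that activate or bind fatty acids had 3 of 10 positive in KO minus WT (median −0.14), and 2 with TMM factors. Acsl6 and Acsbg1, acyl-CoA synthetases of brain, stood at 3.63 and 6.11 times the mean of the other 6 in WT 1 and WT 2. Fabp7, a fatty acid binding protein of radial glia and young astrocytes, was at 0.0616 times, with 1133 to 1728 TPM in the KO libraries, 70.7 and 104 TPM in WT 1 and WT 2, and 1403 and 1740 TPM in the libraries labelled WT 3 and WT 4. All 7 tested genes of myelin galactolipid and ceramide synthesis were negative in KO minus WT (median −0.93) and above the other 6 libraries in WT 1 and WT 2, under each of the 3 scalings. Of all genes, 22.5% lay above in this way as deposited, 31.2% with TMM factors and 29.3% after quantile normalization. Fa2h, which hydroxylates myelin fatty acids, was at 0.12 to 0.93 TPM in the KO libraries, 136 and 180 TPM in WT 1 and WT 2, and 0.08 and 0.31 TPM in the libraries labelled WT 3 and WT 4. None of these genes passed (adjusted p from 0.429 to 0.992 over all 76 tested genes of the lists).

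Spread among the 6 libraries of low Mbp was also described. The coefficient of variation over those libraries had a median of 12.1% over members and 16.2% over all genes. These medians are not matched for level, since all genes enter from a mean of 1 TPM and the lowest member mean was 16.7 TPM (Ebp). Among members the ratio of highest to lowest library ran from 1.07 for Acat2 to 2.76 for Scd1. Against the libraries labelled WT 3 and WT 4 alone, KO differences of the members lay between −0.40 for Tm7sf2 and 0.39 for Scd1, with 14 positive and 16 negative. None of the 30 passed there, against 0.0125% of all genes, and none reached an unadjusted p under 0.05, against 2.14%. Of these 2 libraries, WT 3 has the low Tcf7l2 and the library labelled WT 4 the low Tnfrsf12a given above. Within KO, a pattern noticed after the values were seen was that KO 4 had the highest level for 19 of the 30 members, including 7 of the 9 from squalene to cholesterol, against 31.6% of all genes. Hsd17b7, a sterol ketoreductase, had 22.6, 33.4, 26.2 and 42.9 TPM in KO 1 to KO 4, against 31.4, 31.0, 27.4 and 31.1 TPM in WT 1 to WT 4. Stard4 had 21.3, 22.2, 16.8 and 32.5 TPM in KO 1 to KO 4, against 22.8, 25.2, 20.3 and 22.6 TPM in WT 1 to WT 4. KO 4 was the highest of all 8 libraries for both. Fdps and Tm7sf2 were exceptions, lowest of the KO libraries in KO 4 at 137 and 35.1 TPM. Tcf7l2 was also highest of the KO libraries in KO 4, at 1005 TPM against 529 to 863 TPM in the other 3, and its part in the pattern was not tested.

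The measured members lie on 16 chromosomes of GRCm38 by GENCODE M21, and all are protein coding. Scd1 (chromosome 19, 44394455 to 44407879, minus strand) and Scd2 (44293674 to 44306864, plus strand) lie close together, and shared few sequences, with 4.56% and 3.97% of their 50-base stretches found in another gene's transcripts. Acat2 (chromosome 17, 12942890 to 12960747, minus strand) shared 39.1% of its stretches with Acat3, which stood at 4.02 to 7.78 TPM in the 8 libraries. Acaca shared 30.4%, mostly with the annotated gene Gm5182, and Idi1 25.3%, mostly with Gm13502, so the counting of these genes is uncertain. Fdft1 overlaps Ctsb on the opposite strand over 18.3% of its exon bases and Fdps overlaps Gm43738 on the same strand over 26.7%. Ctsb stood at 112 to 138 TPM in the KO libraries, 245 and 257 TPM in WT 1 and WT 2, and 146 and 121 TPM in the libraries labelled WT 3 and WT 4, higher in WT 1 and WT 2 where Fdft1 was lower. The sources used here do not say whether counting used strand, and 12 members have exons overlapping another gene.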

How the data were processed

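RNA-seq of 8 dLGN libraries, 4 Fn14 KO and 4 Fn14 WT, was analysed from 1 deposited matrix. The authors deposited values in TPM, per the file headers, beside their own group means, which were not used. The submitters' processing notes list the tools BWA and edgeR 3.14.0 and the builds GRCm38 and mm10. Settings, annotation and counting were not stated there. TPM keeps no depth, so precision per library is unknown and no counting interval is given. Library sums of TPM were 969537 for WT 1, 968958 for WT 2 and 996566 to 997426 for the other 6.

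Values were analysed as log2(TPM + 1), a scale that understates the change of low genes, with limma 3.58.1 in R 4.3.3 (trend and robust, two-sided, no covariate) on genes whose mean reached 1 TPM, and the step was tested on simulated data. Each mouse is labelled an independent replicate. The members and lists were chosen with earlier results of these data known, so they received no set test and no adjustment of their own. Every member may be named. Values per library are printed for the 3 members of smallest unadjusted p in each direction, the highest level in each role and, of those outside the range of the other 6 libraries in both libraries with Mbp above 1000 TPM, up to 3 per role and direction by ratio. Outside this rule, Hsd17b7 and Stard4 were given per library after their values were seen. Lrp8, Vldlr, Acat3, Ctsb, Fads1, Fads2, Fads3, Scd3, Scd4 and Elovl4 were also named outside it, after their values were seen. Of each other list, genes are named from the 3 of smallest unadjusted p and the 3 of widest ratio, and some are not reported here. Of 83 genes in those lists, 80 had a row, 7 of them under an older symbol, and 76 were tested. Motifs were searched on both strands of RefSeq windows. The first transcribed bases matched a transcript of the gene in 30 of the 33 windows. Alternatives were other pseudocounts (0.1 and 5 TPM), other filters, quantile normalization, TMM factors computed from TPM, rescaling without the 20 most abundant genes, another variance model, array weights, a replicate block and leaving out libraries. Tables and figures used Python 3.11.15, pandas 2.3.3, numpy 2.4.6 and matplotlib 3.10.9.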

Additional observations from a re-analysis of the deposited data

Results flagged for a closer look

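Hsd17b7 in WT 3 stood at 27.4 TPM, apart from the other 3 WT libraries, which lay between 31.0 and 31.4 TPM. Its gap to the nearest of them was 0.904 of the group's range, past Dixon's 95% critical value for 4 samples. It was the only such case among 60 groups of 4 libraries (30 genes in KO and in WT), where chance gives about 1 in 20.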

How the results depend on the processing

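No member passed in any alternative except array weights. Array weights gave WT 3 and WT 4 weights of 0.13 and 0.138 and called 16 members, 7 higher and 9 lower in KO, against 10376 of all genes (65.0%). The count of all genes was 1 with limma without trend and robust estimation and 2 without both WT 1 and WT 2, and ran from 0 to 1 over the fits that left out 1 library (1 without KO 3). With TMM factors the median of the members was −0.12. The replicate block gave 0 genes and 0 members, with the median unchanged at −0.0003 to the digits given. Same-numbered libraries deviated together at r = −0.1, 0.074, 0.065 and 0.027 across genes, so the numbers were not taken as pairs, and 2 of 4 KO libraries correlated best with the WT library of their own number.

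The sign of the difference turned under at least 1 alternative for 21 of 30 members, among them Acat2, Scd1, Scd2, Elovl6 and Mvk, whose differences were not near 0, and 9 kept it in all. The cause was not tested. After quantile normalization Mvd stood at −0.0081 and Hsd17b7 at −0.0674. With TMM factors Hmgcs1 stood at −0.0786, Mvd −0.0663, Fdps −0.0371, Cyp51 −0.10, Hsd17b7 −0.12 and Acly −0.084. Rescaled without the 20 most abundant genes, Cyp51 stood at −0.0004 and Hsd17b7 at −0.0201. With array weights Hmgcs1 stood at −0.10, Pmvk −0.012, Cyp51 −0.0006 and Dhcr7 0.0263. Without both WT 1 and WT 2, Acat2 stood at −0.0031, Mvk −0.21, Mvd −0.10, Idi1 0.0779, Fdps −0.26, Fdft1 −0.0255, Sqle −0.11, Srebf1 0.0178, Scap −0.0017, Stard4 0.0701, Elovl6 0.0669, Scd1 0.39 and Scd2 0.0007. Leaving out 1 library gave Hmgcs1 −0.0336 to 0.14, Mvd −0.0495 to 0.16, Fdps −0.10 to 0.25, Lss −0.0857 to 0.044, Cyp51 −0.0293 to 0.0871, Nsdhl −0.11 to 0.0418, Hsd17b7 −0.16 to 0.14, Dhcr7 −0.091 to 0.0862, Srebf1 −0.17 to 0.0034, Stard4 −0.18 to 0.13 and Acly −0.0415 to 0.12.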
